A study of Drosophila melanogaster and Drosophila pseudoobscura and Drosophila virilis with 4 samples.

Results

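The regions described here are the 2289 FAIRE-Seq peaks that lie on the *D. melanogaster* X chromosome, out of 19424 peaks in the whole table. They were chosen by position alone: every peak whose *D. melanogaster* coordinates fall on chromosome X was taken, and no measured value entered the choice. The X peaks were set against the 3719 peaks of arm 2L and the 4800 peaks of arm 3R, which served as autosomal reference.

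FAIRE-Seq isolates DNA that is poorly cross-linked to nucleosomes and sequences it, so that reads pile up over open regulatory regions such as promoters and enhancers. The X chromosome corresponds to Muller element A, the chromosome arm that is X-linked in all species of the genus. Drosophila males carry a single X, and the dosage compensation complex raises the transcription of its genes. In *D. pseudoobscura* the X has additionally fused with the element that is arm 3L in *D. melanogaster*, so that 3L is X-linked in that species alone among the 3.

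All 4 libraries came from eye-antennal imaginal discs, the larval epithelia that form the adult eye and antenna, dissected from wandering larvae of the third instar. They were *D. pseudoobscura* (genotype Dpse\wild-type), *D. virilis* (genotype Dvir\wild-type), *D. melanogaster* FRT82 (genotype P{neoFRT}82B, a stock carrying a recombination target site) and *D. melanogaster* Canton-S (a wild-type laboratory strain). Each species other than *D. melanogaster* therefore had 1 library, and the only replicate error was the spread between the 2 *D. melanogaster* strains, which also includes any difference between strains. The sources used here give neither the sex of the larvae nor whether discs of several cultures were pooled. Because whole discs were used, a region that is open in more cells and a region that is more open in each cell cannot be told apart.

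The X peaks held 518724 reads in *D. pseudoobscura*, 299399 in *D. virilis*, 136022 in FRT82 and 348605 in Canton-S. These were 10.96%, 9.95%, 9.81% and 10.2% of the reads in all peaks of each library, while X peaks made up 10.4% of the total peak length. The median X peak held 142 reads in *D. pseudoobscura*, 88 in *D. virilis*, 38 in FRT82 and 101 in Canton-S. FRT82 was the shallowest library, with 157 X peaks under 10 reads, against 9 in *D. pseudoobscura*, 29 in *D. virilis* and 2 in Canton-S. A ratio that involves FRT82 is therefore the least precise.

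Peaks were sparser on X than on either autosomal arm. From the first X peak at position 25263 to the last at 22415644 (22.4 Mb, FlyBase release 5), X held 102 peaks per Mb, against 162 on 2L and 172 on 3R. The density of X was 0.612 times the mean of both arms. Peaks covered 3.31% of the X span, against 5.97% on 2L and 6.53% on 3R. The median gap between neighbouring peaks was 2508.5 bp on X, compared with 1575.5 bp on 2L and 1535 bp on 3R, and 11.5% of X gaps were longer than 20 kb, against 5.68% and 5.46%. Relative to the number of protein-coding genes per chromosome arm in RefSeq (2197 on X, 2657 on 2L and 3398 on 3R), X had 1.04 peaks per gene, 2L 1.40 and 3R 1.41.

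X peaks were also shorter. Their lengths ran between 151 and 2182 bp with quartiles of 193, 261 and 377 bp, whereas the median was 291 bp on 2L and 295 bp on 3R. Of the X peaks, 130 (5.68%) reached 700 bp, against 322 on 2L (8.66%) and 476 on 3R (9.92%). Counting only peaks over 250 bp widened the gap in density, with 54.1 peaks per Mb on X, 100.6 on 2L and 105.7 on 3R. One set of peaks was used for all libraries, so these densities and lengths have no replicate and were not tested. A peak entered the table only if it had reads in every species, and X regions lost at that step cannot be seen here.

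Along the chromosome the density was uneven. In 1 Mb windows counted from the first X peak, the 22 complete windows held between 34 and 141 peaks with a median of 106.5, and the last, incomplete window held 19. The densest 100 kb lay near the telomere, from 1445933 to 1543208, and contained 40 peaks. The widest gap ran from 21504577 to 21837193 in the centromere-side part of the arm, where 333 kb held no peak. Both windows between 20 and 22 Mb were thin, with 34 and 40 peaks, and a further thin window lay at 14 to 15 Mb with 55.

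**Figure D1:**
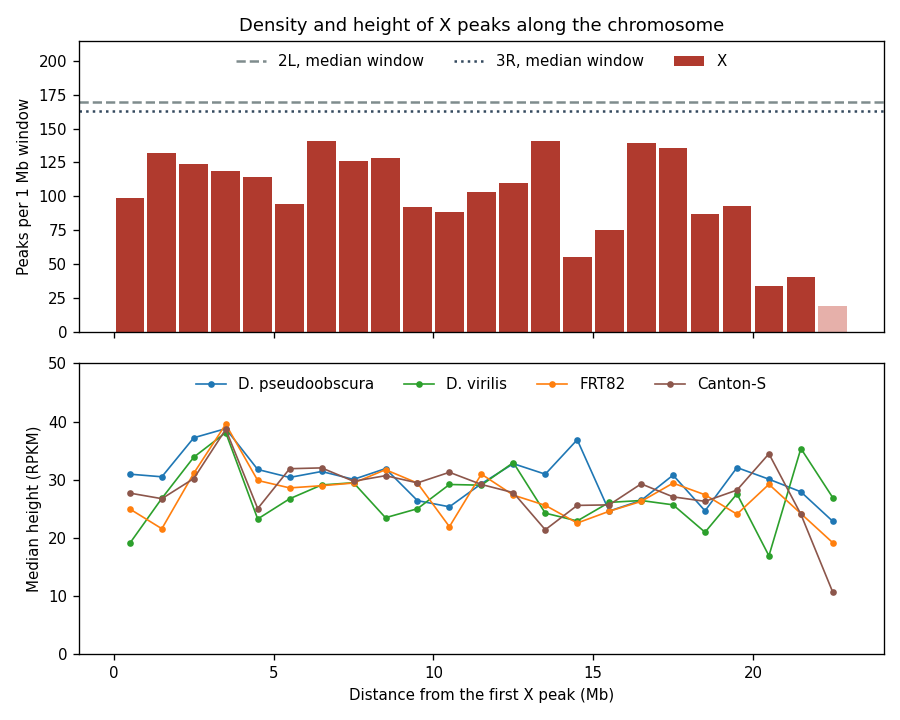
Number of peaks and median height along X in 1 Mb windows counted from the first X peak, with the median windows of 2L and 3R as horizontal lines and, below, one line per library for the median RPKM of the window's peaks. The lighter bar and the last point of each line stand for the incomplete last window with 19 peaks. The 22 complete windows hold between 34 and 141 peaks, and the windows at 20 to 22 Mb are the thinnest of them.

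The heights of X peaks were close to those of autosomal peaks in every library. Height is given as the deposited normalized RPKM, that is, reads scaled by peak length and library depth. The median X peak had 30.9 RPKM in *D. pseudoobscura*, 26.9 in *D. virilis*, 27.8 in FRT82 and 28.6 in Canton-S. The medians on 2L were 28.0, 26.4, 28.0 and 27.8 RPKM in the same order of libraries, and those on 3R 29.1, 26.8, 29.3 and 28.4 RPKM. *D. pseudoobscura* was the library in which X stood highest over both arms, and FRT82 the one in which it stood lowest.

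On the log2 scale, the median X height minus the median of 2L and 3R together was 0.11 in *D. pseudoobscura*, 0.01 in *D. virilis*, −0.05 in FRT82 and 0.03 in Canton-S. The mean over libraries was 0.02 ± 0.07 (SD, n = 4), positive in 3 of 4, and an exact two-sided sign-flip test over the libraries gave p = 0.625, where the smallest p that n = 4 allows is 0.13. The difference was 0.05 ± 0.07 against 2L alone (p = 0.25, exact sign-flip test) and 0.01 ± 0.07 against 3R alone (p = 0.625, exact sign-flip test). Mean instead of median log2 RPKM put X below the arms, by −0.02 against both together.

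Peak length bore on this comparison. A larger share of X peaks was short, with 47.1% up to 250 bp against 38.0% on 2L and 38.6% on 3R, and short peaks were lower on every arm. Within length classes X stood higher than both arms, except in FRT82 over 400 bp. There its 35.8 RPKM lay between 35.2 on 2L and 36.1 on 3R. Up to 250 bp, the X median in *D. pseudoobscura* was 27.1 RPKM, against 23.0 on 2L and 24.6 on 3R. In Canton-S it was 23.2 RPKM in this class, against 21.3 on both 2L and 3R. Averaged over 3 length classes, the X minus autosome difference was 0.10 on the log2 scale and positive in all 4 libraries (exact sign-flip p = 0.13, the smallest possible).

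The lower tail of X was the wider one in *D. melanogaster*. The 10th percentile of X heights was 8.92 RPKM in FRT82 and 8.52 in Canton-S, against 10.4 and 9.89 RPKM over 2L and 3R. At the upper end, 157 X peaks (6.86%) were among the 1000 highest peaks of the *D. pseudoobscura* library, against 119 in *D. virilis* (5.20%), 99 in FRT82 (4.33%) and 115 in Canton-S (5.02%). On 2L and 3R together, the shares were 5.46% in *D. pseudoobscura*, 5.04% in *D. virilis*, 5.05% in FRT82 and 4.91% in Canton-S.

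**Figure D2:**
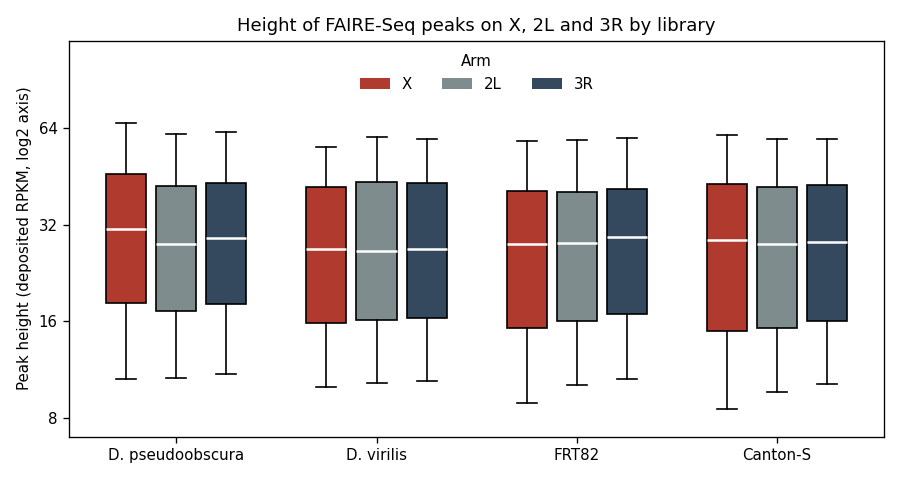
Heights of X, 2L and 3R peaks in each library as normalized RPKM on a log2 axis; boxes span the quartiles, the white line is the median and whiskers reach the 10th and 90th percentiles. The boxes of the 3 arms overlap almost wholly in each library, with the X median at 30.9 RPKM in D. pseudoobscura and at 26.9 to 28.6 RPKM in the other libraries.

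Between species, X peaks stood slightly higher in *D. pseudoobscura* than autosomal peaks did. The median log2 ratio of *D. pseudoobscura* over *D. melanogaster* (mean of the log2 RPKM of both strains) was 0.16 over X peaks and 0.03 over 2L and 3R peaks. The X offset, defined as the difference of these medians, was 0.13, or 1.09-fold. It was 0.13 over FRT82 and 0.11 over Canton-S (SD 0.01, n = 2 strains). Both values use the same *D. pseudoobscura* library, so this SD does not measure the spread between libraries of that species. FRT82 over Canton-S gave an offset of −0.05. The *D. pseudoobscura* offset lay between 0.12 and 0.14 when any 1 window of X was left out. On X, 56.9% of the peaks had a ratio above 1, against 51.5% on 2L and 51.2% on 3R.

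For *D. virilis* over *D. melanogaster* the X offset had the opposite sign and was smaller. It was −0.06 (0.96-fold), with −0.03 over FRT82 and −0.08 over Canton-S (SD 0.03, n = 2 strains). The net *D. virilis* value combined classes of X peaks whose medians differed in sign. Among X peaks up to 250 bp the median log2 ratio was 0.04, against −0.01 on 2L and 0.02 on 3R. Among those over 250 and up to 400 bp it was −0.22, against 0.01 and −0.04. Over 400 bp it was −0.07, against 0.02 and −0.01. Split at the quartiles of mean X height over the 4 libraries, the lowest class had a median log2 ratio of 1.02 on X and 0.67 on 2L and 3R, and the classes above it −0.40, −0.27 and −0.14 on X and −0.19, −0.12 and −0.04 on 2L and 3R. The signs by height class were thus the same on X as on 2L and 3R. The height used for this split includes the *D. virilis* values, so these medians are a description. FRT82 over Canton-S, which compares libraries of 1 species, gave an X offset of −0.05, close in size to the *D. virilis* value. Both species offsets share the *D. melanogaster* libraries and each rests on 1 library of the other species. Asked for both species together, the X minus autosome height averaged 0.06 in *D. pseudoobscura* and *D. virilis* and −0.01 in the *D. melanogaster* strains, a difference of 0.07 (exact permutation test, p = 0.667, smallest possible 0.33).

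Arm 3L, X-linked in *D. pseudoobscura* only, moved the other way in that species. Its offset against 2L and 3R was −0.24 in *D. pseudoobscura* over *D. melanogaster*, compared with 0.13 for X, and −0.07 in *D. virilis* over *D. melanogaster*, compared with −0.06 for X. No test of these arm differences was run.

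Single X peaks scattered far more widely than these offsets. The median absolute log2 ratio over X peaks was 0.62 for *D. pseudoobscura* over *D. melanogaster* and 0.77 for *D. virilis* over *D. melanogaster*, while it was 0.38 for FRT82 over Canton-S. On 2L and 3R the *D. virilis* value was 0.67 and 0.64 and the *D. pseudoobscura* value 0.60 on each. The comparison of *D. pseudoobscura* with *D. virilis* gave 0.86 on X, 0.74 on 2L and 0.78 on 3R. For the strains all 3 arms were alike, with 0.38 on X, 0.39 on 2L and 0.38 on 3R, so the wider scatter on X was seen mainly where *D. virilis* was compared, which was not tested.

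The order of heights over X peaks was accordingly least shared where *D. virilis* was involved. Pearson's r of log2 RPKM over the 2289 X peaks was 0.162 for *D. pseudoobscura* and *D. virilis*, against 0.264 over 2L and 0.242 over 3R. It was 0.260 for *D. virilis* and Canton-S on X, against 0.374 on 2L and 0.400 on 3R. For *D. pseudoobscura* and Canton-S the X value, 0.469, lay above those of 2L (0.438) and 3R (0.457), and for FRT82 and Canton-S it was 0.845, against 0.808 and 0.803. These values describe peaks that share libraries and depth, and no p was attached to them.

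Read in 1 Mb windows, the *D. pseudoobscura* ratios were above 0 along most of X. The *D. virilis* ratios changed sign along it, as they did along 2L and 3R. The window medians of the *D. pseudoobscura* log2 ratio lay between −0.05 and 0.57, and 19 of 22 complete windows were positive, against 16 of 22 on 2L and 15 of 27 on 3R. Above the median of all 2L and 3R peaks lay 18 of the 22 X windows, 14 of the 22 windows of 2L and 11 of the 27 of 3R. The highest was the window at 14 to 15 Mb, whose 55 peaks had a median of 36.9 RPKM in *D. pseudoobscura*, 22.9 in *D. virilis*, 22.6 in FRT82 and 25.6 in Canton-S. The window medians of *D. virilis* over *D. melanogaster* lay between −0.82 and 0.38. Of these medians 8 of 22 were positive, against 12 of 22 on 2L and 13 of 27 on 3R. Their SD was 0.27 on X, against 0.10 on 2L and 0.13 on 3R, and the windows of 2L and 3R hold more peaks (medians of 169.5 and 163). For FRT82 over Canton-S the X windows lay between −0.18 and 0.19. Only 7 of 22 were positive, against 14 of 22 on 2L and 16 of 27 on 3R. Above the median of all 2L and 3R peaks lay 6 on X, 12 on 2L and 15 on 3R. The X windows of the strain comparison were thus also mostly of 1 sign.

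Both ends of the arm held windows in which *D. virilis* stood apart. In the window next to the telomere, 99 peaks had medians of 31.0 RPKM in *D. pseudoobscura*, 19.1 in *D. virilis*, 25.0 in FRT82 and 27.7 in Canton-S. At 20 to 21 Mb, 34 peaks had 30.1 RPKM in *D. pseudoobscura*, 16.9 in *D. virilis*, 29.2 in FRT82 and 34.5 in Canton-S, the lowest *D. virilis* median among the complete windows of X. The next window, at 21 to 22 Mb, went the other way, with 35.4 RPKM in *D. virilis* and 27.9, 24.2 and 24.1 RPKM in *D. pseudoobscura*, FRT82 and Canton-S. In the window at 19 to 20 Mb the median log2 ratio was above 0 in both other species, with 32.1 RPKM in *D. pseudoobscura* and 27.6 in *D. virilis*, against 24.1 in FRT82 and 28.2 in Canton-S, and median log2 ratios of 0.49 and 0.29. The highest window by level, at 3 to 4 Mb, had 38.8, 38.1, 39.5 and 38.7 RPKM in *D. pseudoobscura*, *D. virilis*, FRT82 and Canton-S and was thus nearly level across libraries.

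**Figure D3:**
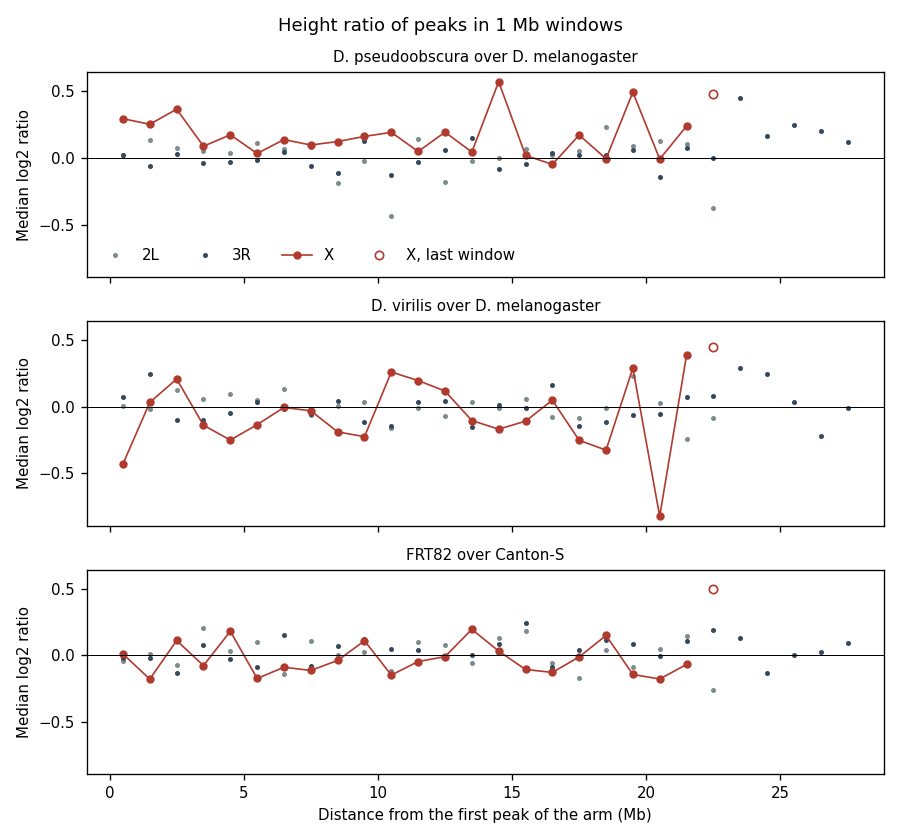
Median log2 ratio of normalized RPKM per 1 Mb window along X for D. pseudoobscura over D. melanogaster, D. virilis over D. melanogaster and FRT82 over Canton-S, with the windows of 2L and 3R for comparison; open circles mark the incomplete last X window. The D. pseudoobscura medians are above 0 in 19 of 22 complete X windows, and the D. virilis medians range between −0.82 and 0.38.

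Peak by peak, edgeR's quasi-likelihood test on the read counts called 506 to 836 X peaks in each species comparison at an adjusted p under 0.05, with Benjamini-Hochberg adjustment over all 19424 peaks. The fit borrowed the spread of both lone libraries from the difference between the *D. melanogaster* strains (coefficient of variation 20.1%), so the calls set these libraries apart by more than the strains differ and do not replicate a species. Against *D. melanogaster*, 390 X peaks (17.0%) were higher in *D. pseudoobscura* and 259 (11.3%) lower. Over all peaks 13.8% were called higher and 13.7% lower, and on 2L the shares were 14.4% and 13.4%, on 3R 14.5% and 12.5%. In either direction 28.4% of X peaks were called, with 27.5% over all peaks. The remaining 1640 X peaks were not called, and the smallest fold change called was 0.71 on the log2 scale.

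For *D. virilis* against *D. melanogaster*, 335 X peaks (14.6%) were higher and 326 (14.2%) lower, where over all peaks 11.9% were higher and 12.9% lower. In either direction 28.9% of X peaks were called, against 24.0% on 2L, 23.3% on 3R and 24.7% over all peaks. The mean of both species against *D. melanogaster* gave 237 higher and 269 lower X peaks (10.4% and 11.8%), where over all peaks 8.55% were higher and 13.1% lower. For *D. pseudoobscura* against *D. virilis*, 490 X peaks were higher and 346 lower (21.4% and 15.1%), against 16.7% and 16% over all peaks. The X shares thus lay above those of all peaks for higher calls in all 4 comparisons, which share libraries, and no test of the difference between arms was made.

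**Figure D4:**
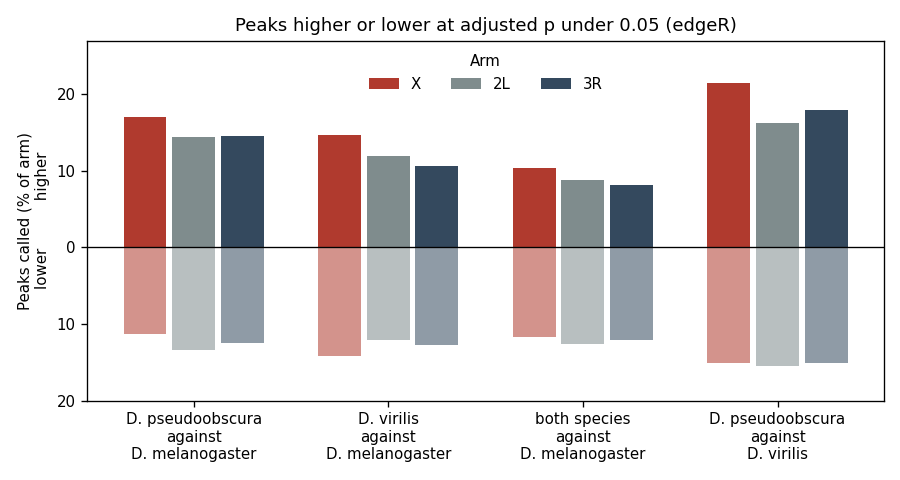
Share of the peaks of X, 2L and 3R that edgeR called higher (bars above 0) and lower (paler bars below 0) at an adjusted p under 0.05 in each of the 4 species comparisons, in percent of the arm's peaks. On X, 17.0% were called higher and 11.3% lower in D. pseudoobscura against D. melanogaster, and 21.4% and 15.1% in D. pseudoobscura against D. virilis.

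The split of calls depended on where the ratios were centred. A further fit removed the X offset of each library against 2L and 3R in log2 counts, which by construction moves the split towards balance. With this fit, edgeR called 317 higher and 305 lower X peaks in *D. pseudoobscura* against *D. melanogaster* (13.8% and 13.3%, with 13.4% and 14.0% over all peaks). For *D. pseudoobscura* against *D. virilis* it called 396 higher and 405 lower (17.3% and 17.7%, with 16.2% and 16.2% over all peaks). The counts also depended on the tool. DESeq2 called 75 X peaks higher and 69 lower in *D. pseudoobscura* against *D. melanogaster* (3.28% and 3.01%), where over all peaks 2.59% were higher and 3.61% lower. In *D. virilis* against *D. melanogaster* it called 66 higher and 101 lower (2.88% and 4.41%, with 2.18% and 3.50% over all peaks). For the mean of both species DESeq2 gave 53 higher and 88 lower X peaks (2.32% and 3.84%, with 1.77% and 4.00% over all peaks). For *D. pseudoobscura* against *D. virilis* it gave 136 higher and 98 lower (5.94% and 4.28%, with 4.37% and 4.42% over all peaks). The share of higher calls among called X peaks was thus 52.1% in *D. pseudoobscura* with DESeq2 and 60.1% with edgeR, and 39.5% in *D. virilis* with DESeq2 and 50.7% with edgeR. With limma on log2 RPKM, 374, 571, 493 and 497 X peaks were called in the 4 comparisons. The X shares called higher were 10.1%, 11.3%, 10.7% and 13.8%, with 7.56%, 8.97%, 7.87% and 9.55% over all peaks. The X shares called lower were 6.20%, 13.6%, 10.9% and 7.91%, with 7.18%, 10.8%, 10.2% and 8.02% over all peaks. With the strains and the other species as 2 groups instead of 3, edgeR called 0 X peaks and 0% of all peaks. At an unadjusted p under 0.05 it had 239 X peaks, a count without a share over all peaks beside it.

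In *D. pseudoobscura* against *D. melanogaster*, calls were more frequent among short peaks on X and on both autosomal arms. Of the X peaks up to 250 bp, 32.6% were called, of those over 250 and up to 400 bp 25.6%, and of those over 400 bp 23.1%. The shares were 31.9%, 28.9% and 21.5% on 2L and 29.9%, 26.5% and 24.1% on 3R, so X was close to both. The median FRT82 count of X peaks was 23, 48 and 111 reads in these classes. For *D. virilis* against *D. melanogaster* the shares were 31.3%, 30.8% and 20.9%. The excess of *D. virilis* calls on X over 2L lay in both shorter classes, where 2L had 25.3% and 24.9%, and over 400 bp X and 2L were alike, with 20.9% and 21.6%.

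Counted by size alone, 439 X peaks (19.2%) were at least 2-fold higher in *D. pseudoobscura* than in *D. melanogaster* and 272 (11.9%) at least 2-fold lower, where over all peaks 15.6% and 13.9% were. For *D. virilis* the counts were 440 (19.2%) and 447 (19.5%), where over all peaks 16.7% were higher and 16.9% lower. For *D. pseudoobscura* over *D. virilis* 593 X peaks (25.9%) were 2-fold higher and 405 (17.7%) 2-fold lower, where over all peaks 20.5% and 18.5% were, or 43.6% of X peaks and 39.1% of all peaks in either direction. The mean of both species over *D. melanogaster* was 2-fold apart at 613 X peaks, 26.8%, with 23.9% over all peaks. FRT82 and Canton-S were 2-fold apart at 101 X peaks higher (4.41%, and 4.94% over all peaks) and 102 lower in FRT82, together 8.87%, with 9.74% over all peaks. The strains thus differed by 2-fold at fewer X peaks than any pair of species did.

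Peaks close to each other tended to differ alike. For neighbouring X peaks less than 1 kb apart (767 pairs), the log2 ratios of *D. pseudoobscura* over *D. melanogaster* correlated with r = 0.349 and those of *D. virilis* with r = 0.308. At 1 to 10 kb (995 pairs) r was 0.05 and 0.10, and beyond 10 kb (526 pairs) 0.03 and 0.000651. The ratios of FRT82 over Canton-S had r = 0.335 under 1 kb on X, against 0.411 on 2L and 0.415 on 3R. Neighbouring peaks are not independent, so these values are a description.

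The X peaks with the greatest differences can be described singly. No gene was assigned to them, since the table gives positions only. A gain below means a height above that in *D. melanogaster*, and the lineage in which a height changed was not inferred. The strongest gain in *D. pseudoobscura* lay from 17758397 to 17758548 (151 bp), with 138.0 RPKM in *D. pseudoobscura* (387 reads), 8.67 in *D. virilis* (15 reads), 4.56 in FRT82 (4 reads) and 3.29 in Canton-S (11 reads). It was high in *D. pseudoobscura* alone, and the edgeR log2 fold change over *D. melanogaster* was 4.80 ± 0.51 (SE, adjusted p = 1.23e-17). Another gain lay from 10366047 to 10366201, with 129.7 RPKM in *D. pseudoobscura*, 18.4 in *D. virilis*, 9.99 in FRT82 and 4.99 in Canton-S. The next, from 8933991 to 8934272, had 75.8 RPKM in *D. pseudoobscura*, 14.9 in *D. virilis*, 5.55 in FRT82 and 2.62 in Canton-S. At this peak *D. virilis* was also above both strains (edgeR log2 fold change 1.70 ± 0.52, adjusted p = 0.00827, and up to 0.134 under the alternatives), so that the order of levels was *D. pseudoobscura*, *D. virilis*, then *D. melanogaster*.

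Differences in the other direction, lower in *D. pseudoobscura* than in *D. melanogaster*, reached similar sizes. From 7103607 to 7103961 (354 bp), heights were 4.88 RPKM in *D. pseudoobscura* (19 reads), 8.38 in *D. virilis* (34 reads), 50.4 in FRT82 (96 reads) and 30.1 in Canton-S (143 reads), and the edgeR log2 fold change was −3.67 ± 0.55 (adjusted p = 9.14e-09). It was low in both other species. In contrast, the peak from 10636567 to 10636758 was intermediate in *D. virilis*, with 8.61 RPKM in *D. pseudoobscura*, 43.4 in *D. virilis*, 101.5 in FRT82 and 85.8 in Canton-S. The peak from 11588792 to 11589068 likewise had its lowest level in *D. pseudoobscura*, with 5.20, 19.8, 34.9 and 47.8 RPKM in *D. pseudoobscura*, *D. virilis*, FRT82 and Canton-S.

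The largest gain in *D. virilis*, from 1867604 to 1867829, apart from the proximal group described next, stood at 119.7 RPKM in *D. virilis* (284 reads), 9.27 in *D. pseudoobscura* (31 reads), 4.60 in FRT82 (6 reads) and 2.43 in Canton-S (13 reads). It was high in *D. virilis* alone, with an edgeR log2 fold change over *D. melanogaster* of 4.56 ± 0.50 (adjusted p = 7.34e-17). The named X peaks furthest below *D. melanogaster* in *D. virilis* all lay between 15 and 17 Mb. They were at 15747477 to 15747661, 16026997 to 16027161 and 16069365 to 16069582. The last of them had 2.72 RPKM in *D. virilis* (5 reads), 9.56 in *D. pseudoobscura* (31 reads), 40.2 in FRT82 (47 reads) and 31.0 in Canton-S (90 reads), and the edgeR log2 fold change of *D. virilis* over *D. melanogaster* was −4.13 ± 0.69 (adjusted p = 3.08e-07). *D. pseudoobscura* was below both strains at all 3, with 10.7, 6.60 and 9.56 RPKM, whereas the strains had between 21.9 and 73.6 RPKM.

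One group of X peaks in *D. virilis* was singled out after its values were seen. At the centromere-side end, 6 consecutive peaks between 22286896 and 22306142 (19.2 kb) were all called higher in *D. virilis* than in *D. melanogaster*. They ranged between 38.5 and 631 RPKM in *D. virilis*, between 5.50 and 9.62 in *D. pseudoobscura*, between 4.58 and 10.5 in FRT82 and between 3.40 and 17.7 in Canton-S, so that the *D. virilis* values did not overlap with any other library. The peak from 22295622 to 22296121, with 2731 of the 3965 *D. virilis* reads of the group, was the highest of X, and its neighbour from 22286896 to 22287418 had 112 RPKM in *D. virilis* and 8.23, 9.08 and 5.86 RPKM in *D. pseudoobscura*, FRT82 and Canton-S. The last of the group, from 22305954 to 22306142, had 78.7 RPKM in *D. virilis*, 5.50 in *D. pseudoobscura*, 4.58 in FRT82 and 3.40 in Canton-S. The largest adjusted p among the 6 was 0.0464 (edgeR), at the peak from 22302943 to 22303106.

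This group took 1.32% of the *D. virilis* reads of X. Reads per bp of X relative to 2L and 3R were 0.955 in *D. virilis* with the group and 0.945 without it. Runs of this length were not particular to X: the longest run of higher *D. virilis* calls was 6 peaks on 2L as well and 5 on 3R. For *D. pseudoobscura* over *D. melanogaster* the longest run on X had 5 higher peaks, from 2306744 to 2329415, with 33.4 to 51.9 RPKM in *D. pseudoobscura*, 12.4 to 61.1 in *D. virilis*, 5.37 to 17.2 in FRT82 and 3.87 to 15.6 in Canton-S. On 2L the longest such run had 11 peaks and on 3R 5.

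That run also held an X peak that was clearly higher in both other species. At 2307395 to 2307626 the heights were 33.5 RPKM in *D. pseudoobscura* (142 reads) and 61.1 in *D. virilis* (159 reads), against 5.99 in FRT82 (8 reads) and 4.60 in Canton-S (21 reads), and the edgeR log2 fold change of both species over *D. melanogaster* was 2.77 ± 0.44 (adjusted p = 3.32e-08). The opposite pattern, low in both, was seen from 21465266 to 21465426, with 5.05 RPKM in *D. pseudoobscura* and 4.76 in *D. virilis*, against 48.8 in FRT82 and 24.1 in Canton-S. These calls held with DESeq2 and limma in 3 groups. With all libraries in 2 groups they were lost, with edgeR adjusted p of 0.201 at the first and 0.288 at the second.

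In the comparison of these 2 species with each other, the interval from 9397906 to 9398061 stood at 80.4 RPKM in *D. pseudoobscura* and 3.49 in *D. virilis*, while FRT82 had 6.64 and Canton-S 10.5. The peak at 982089 to 982283 reached 117 RPKM in *D. pseudoobscura* and 7.52 in *D. virilis*, with 35.0 in FRT82 and 32.7 in Canton-S between them (edgeR log2 fold change of *D. pseudoobscura* over *D. virilis* 4.13 ± 0.58, adjusted p = 2.85e-10). In the other direction, the peak at 5168703 to 5168858 stood at 2.82 RPKM in *D. pseudoobscura* and 124 in *D. virilis*, with 11.1 in FRT82 and 6.38 in Canton-S. A peak with a smaller difference in this direction lay from 18774334 to 18774506. It had 2.62 RPKM in *D. pseudoobscura* (4 reads) and 31.2 in *D. virilis* (64 reads), with 21.4 in FRT82 and 8.84 in Canton-S.

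The strains themselves differed most at 13168855 to 13169096, with 52.8 RPKM in FRT82 (68 reads) and 10.2 in Canton-S (44 reads), and at 15273121 to 15273306, with 4.68 RPKM in FRT82 (5 reads) and 32.7 in Canton-S (80 reads). At the first of these *D. pseudoobscura* (10.3 RPKM) and *D. virilis* (7.53 RPKM) were near Canton-S. At the second *D. pseudoobscura* (31.7 RPKM) was near Canton-S and *D. virilis* (10.1 RPKM) lay between the strains. With 1 library per strain, these differences have no replicate check.

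Other prominent X peaks were not called in the edgeR fit. After the *D. virilis* peak at the centromere-side end, the highest X peaks by mean RPKM lay close together, at 3637424 to 3637606 and at 3672186 to 3672377. The first had 141 RPKM in *D. pseudoobscura*, 98.0 in *D. virilis*, 149.5 in FRT82 and 183.9 in Canton-S, a range of 0.91 on the log2 scale, and its adjusted p for *D. virilis* against *D. melanogaster* was 0.101 with edgeR and as low as 0.0282 among the alternatives. The second had 129.3 RPKM in *D. pseudoobscura*, 155.2 in *D. virilis*, 160.7 in FRT82 and 171.5 in Canton-S, and none of the 4 edgeR comparisons called either peak. The longest X peak, from 4803039 to 4805221 (2182 bp), had 46.5, 42.2, 38.5 and 43.0 RPKM in *D. pseudoobscura*, *D. virilis*, FRT82 and Canton-S. The next in length, from 11711195 to 11713164 (1969 bp) and from 8136514 to 8138181 (1667 bp), were not called in any of the comparisons with *D. melanogaster* either, with levels between 46.5 and 67.7 RPKM and between 32.1 and 42.5 RPKM over the 4 libraries.

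The most even of the high X peaks, from 2039413 to 2039895, had 46.7 RPKM in *D. pseudoobscura*, 44.1 in *D. virilis*, 46.1 in FRT82 and 45.9 in Canton-S, a range of 0.08 on the log2 scale. It was followed by the peak from 7590653 to 7591024, with 52.0, 52.6, 50.6 and 54.8 RPKM, and by the peak from 6903061 to 6903316, with 104.9, 103.2, 107.4 and 97.6 RPKM in the same libraries. These peaks were chosen for the small range, so their levels are a description.

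**Figure D5:**
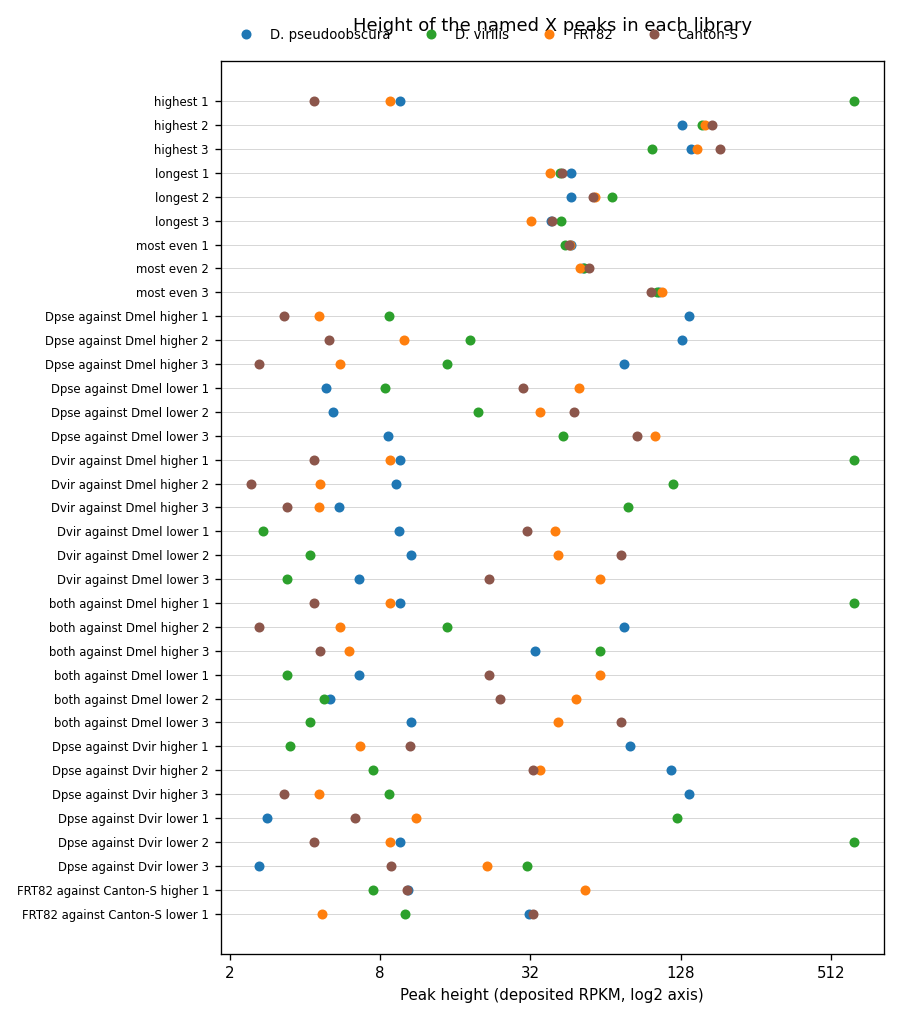
Normalized RPKM of the X peaks named in the text in the 4 libraries, on a log2 axis, by the reason for which each was named. A peak named for several reasons appears once for each. The D. virilis point of the peak at 22295622 lies at 631 RPKM and far from the other 3 libraries, whereas the 4 points of the most even peaks fall together.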

How the data were processed

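Peaks on X were taken from 1 table of 19424 peaks with 4 libraries, and 0 columns of values per sample were left unused. According to the methods, the authors clipped adapters (FastX clipper 0.013), mapped reads with Bowtie2 (genomes: *D. melanogaster* FlyBase release 5, *D. pseudoobscura* release 2, *D. virilis* release 1), and lifted alignments to *D. melanogaster* positions (minMatch 0.1). They called peaks with F-Seq (length 200), discarded regions without reads in a species and kept peaks over 1 RPKM and 150 bp. The deposited counts are the authors' raw HTSeq reads per peak. The deposited RPKM are counts that the authors scaled by length and depth and normalized between libraries by a tool not given in the sources used here. Lifting can lose reads of the other species, and neither GC content nor mappability nor gene features were examined.

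Lengths were taken as end minus start, and positions are printed as in the table. Genes per arm were counted in the RefSeq table of release 6, of which no coordinates were used. Counts were tested with edgeR 4.0.16 (quasi-likelihood, TMM, 3 species groups, no filter, adjusted p under 0.05 over all peaks). DESeq2 1.42.0 and limma 3.58.1 (R 4.3.3) were alternatives, beside other normalizations, pseudocounts of 1 and 5, a mean count of at least 50, removal of the X offset and omission of each strain. The p-values of the peak-by-peak fits measure only the spread between the 2 strains, and whether these came from separate cultures is not stated. On simulated counts with log2 changes of 2, edgeR recovered 85.5% of 200 changed peaks for *D. pseudoobscura* against *D. melanogaster*, with 5 false calls among 19224. At log2 changes of 1 it recovered 0.0% there and 0.5% for *D. virilis* against *D. melanogaster*. It recovered 17.0% for the mean of both and 0.0% for *D. pseudoobscura* against *D. virilis*. Only 200 of 19424 simulated peaks changed, whereas edgeR called 27.5% of all real peaks in *D. pseudoobscura* against *D. melanogaster*. The adjusted p is stricter where few peaks change, so these recoveries do not carry over to the data. The smallest log2 change called on X in that comparison was 0.71. Arm differences were tested with exact permutations over libraries (Python 3.11.15, scipy 1.17.1), whose p-values rest on the 4 libraries of 3 species.

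The X peaks named are the 3 highest, the 3 longest, the 3 largest changes in each direction per comparison among called peaks whose groups did not overlap, the largest strain difference in each direction, and the 3 most even among the X peaks above the upper quartile of height. The X peaks, comparisons and rules were chosen with earlier results of these data known.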

Additional observations from a re-analysis of the deposited data

Results flagged for a closer look

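The X offset had opposite signs in the 2 other species. Over *D. melanogaster* it was 0.129 on the log2 scale in *D. pseudoobscura* and −0.058 in *D. virilis*. In *D. pseudoobscura* it was positive over each strain, and in *D. virilis* negative over each strain, which drew attention to it. Each species had 1 library, so the difference between the offsets was not tested, and the offset of FRT82 over Canton-S, −0.05, was nearly as large as that of *D. virilis*.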

How the results depend on the processing

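With mean in place of median log2 RPKM, the X minus autosome height changed sign, to −0.0015 against 2L, −0.041 against 3R and −0.024 against both. The *D. virilis* X offset was −0.10 when peaks needed a mean count of at least 50, and the cause was not tested. X peaks called in *D. pseudoobscura* against *D. melanogaster*, *D. virilis* against *D. melanogaster*, both against *D. melanogaster* and *D. pseudoobscura* against *D. virilis* were 649, 661, 506 and 836 with edgeR, 144, 167, 141 and 234 with DESeq2, and 390, 384, 304 and 543 at an adjusted p under 0.01. With limma the first and the last of these comparisons gave 374 and 497. The counts at an adjusted p under 0.01 have no share over all peaks beside them. They therefore do not show whether X differs from other arms. With 2 groups edgeR called 0 in the mean of both species against *D. melanogaster*, and without one strain 1 in each case. Leaving out each strain gave a *D. pseudoobscura* X offset between 0.1145 and 0.1322, a *D. virilis* X offset between −0.082 and −0.034 and X heights over 2L and 3R between 0.024 and 0.050. Fits in 3 groups without a strain could not be fitted, since no residual degree of freedom was left. The calls of the named peaks held in 90 edgeR refits with other settings, in 24 with DESeq2 and in 24 with limma. These peaks were picked as the largest changes among edgeR calls in the same counts. Their holding was thus likely beforehand and is no independent support. The 6 named calls refitted with all libraries in 2 groups were lost. At a mean count of at least 50, only 18 of the 24 named calls were refitted, since the other peaks fell below that count. The offsets without each X window in turn, and without its last window, were chosen after seeing the data. No paired analysis was possible because the groups compared share fewer than 2 replicate numbers. FRT82 had a median of 23 reads in X peaks up to 250 bp, and recovery by depth was not tested.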

Other observations

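The table also holds 8 peaks on XHet, a separate sequence of X heterochromatin, which the choice by chromosome X leaves out. Their median height was 27.7 RPKM in *D. pseudoobscura*, 15.0 in *D. virilis*, 11.4 in FRT82 and 10.3 in Canton-S. The single peaks overlapped between all libraries, with 12.8 to 50.8 RPKM in *D. pseudoobscura*, 6.93 to 49.9 in *D. virilis*, 4.78 to 37.7 in FRT82 and 3.69 to 55.6 in Canton-S. No test was run on these 8 peaks.

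The incomplete window at the centromere-side end of X, with 19 peaks, had a median log2 ratio of FRT82 over Canton-S of 0.50, outside the range of −0.18 to 0.19 of the complete X windows. Its median heights were 22.8 RPKM in *D. pseudoobscura*, 26.9 in *D. virilis*, 19.2 in FRT82 and 10.6 in Canton-S.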
